A study of Homo sapiens with 6 samples.

Results

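EPHA7 is one of the Eph receptor tyrosine kinases, and it is described here with the families of ligands and receptors that steer growing axons: the Eph receptors and their ephrin ligands, the semaphorins and their plexin receptors, and the SLIT ligands and their ROBO receptors. The members were taken by gene symbol, and 58 of the 24000 gene entries of the table held one. The families were selected on the difference of EPHA7 between the groups, which was already known from these tumors. The values of EPHA7 are therefore given as a description, with no test of its own. EPHA7 is left out of the counts of members called below, except in the closing section on processing, where it is included. The values of the other members come from the same comparison, and nothing is drawn from how many of them passed a threshold.

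The tumors were xenografts of PC-3, a human prostate cancer cell line that grows without androgen, in nude mice, which lack T cells. The vehicle group held 3 tumors and the other 3 came from mice that received WCE, an extract of the herb Wedelia chinensis given by mouth, and RNA was sequenced from stranded libraries of polyadenylated RNA. The labels give 10 weeks of treatment for both groups and no dose, and the study's text gives another duration and more than one dose for PC-3 tumors. In its general methods, male athymic mice 6 weeks of age received PC-3 cells carrying a luciferase gene in the anterior prostate. The labels count the tumors as individual samples, and 1 cell line and 1 host strain limit what they stand for. Levels are FPKM, fragment counts scaled to transcript length and to the mapped fragments of the library. Whether the tumors were also scaled to each other is not given, which limits comparison between tumors.

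Eph receptors sit in the membrane and bind ephrins on the surface of a neighboring cell, so that both cells can receive a signal. A-class ephrins are held by a lipid anchor and mostly bind EPHA receptors, whereas B-class ephrins cross the membrane and mostly bind EPHB receptors. Semaphorins signal through plexins, with neuropilins as partner receptors for most secreted class 3 semaphorins, and SLIT proteins are secreted ligands of ROBO receptors. All of these families also act outside the nervous system, in epithelial boundaries, blood vessels and the movement of tumor cells.

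A pair of libraries stood apart from the rest. Vehicle replicate 3 and WCE replicate 1 had a median absolute difference of 0.049 on the log2(FPKM + 1) scale over the 47 members tested, whereas the remaining 14 pairings gave 0.12 to 0.35. Over 1915 entries with a mean of at least 50 FPKM, the corresponding values were 0.028 and 0.095 to 0.25. None of the 15805 entries above 0 in WCE replicate 1 was at 0 in vehicle replicate 3, and 329 to 546 were at 0 in any one of the remaining tumors. With vehicle replicate 3 at 100%, the depth read from the steps of low values was 25.0% in WCE replicate 1 and 64.8% to 85.2% in the other tumors. The same pattern was seen in members near the limit of detection. EFNA2, an A-class ephrin, had 0.0236 FPKM in vehicle replicate 3, with 0.0945 FPKM in WCE replicate 1, and was listed at 0 elsewhere. SEMA5B, a semaphorin, had 0.0105 and 0.0421 FPKM in this pair, 0.0263 FPKM in WCE replicate 3 and 0 in the rest. The ratios within the pair were 3.99 and 4.00. The depth estimate rests on such ratios, over entries with a single listed start of transcription that were above 0 in at most 3 tumors. For WCE replicate 1, 127 of these entries lay at the commonest ratio. The labels give the libraries as different tumors of different groups, and whether both came from 1 source was not tested. If they did, at least 1 group would not hold 3 tumors of its own, and the labels do not tell which. Any mean or SD with n = 3 could then be affected, and each p would change in meaning. All 6 were kept as labeled, and the log2 differences that moved most without the pair are given beside those with it.

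EPHA2 and SEMA3C were the most abundant of the 58 members, and every family held members above the minimum for testing. The mean over the 6 tumors was at least 10 FPKM in 19 members and at least 1 FPKM in 43. It was at least 0.5 FPKM, the minimum for testing, in 47 members: 7 of 9 EPHA receptors, 4 of 5 EPHB receptors, 4 of 5 A-class ephrins, all 3 B-class ephrins, 17 of 20 semaphorins, 7 of 9 plexins, 2 of 3 SLIT genes and 3 of 4 ROBO genes. The 11 members below it were EPHA6, EPHA8, EPHB1, EFNA2, SEMA3G, SEMA5B, SEMA6A, PLXNA4, PLXNC1, SLIT3 and ROBO2. Of these, EPHA8, EFNA2, SEMA5B and ROBO2 were listed at 0 in at least 1 tumor.

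**Figure D1:**
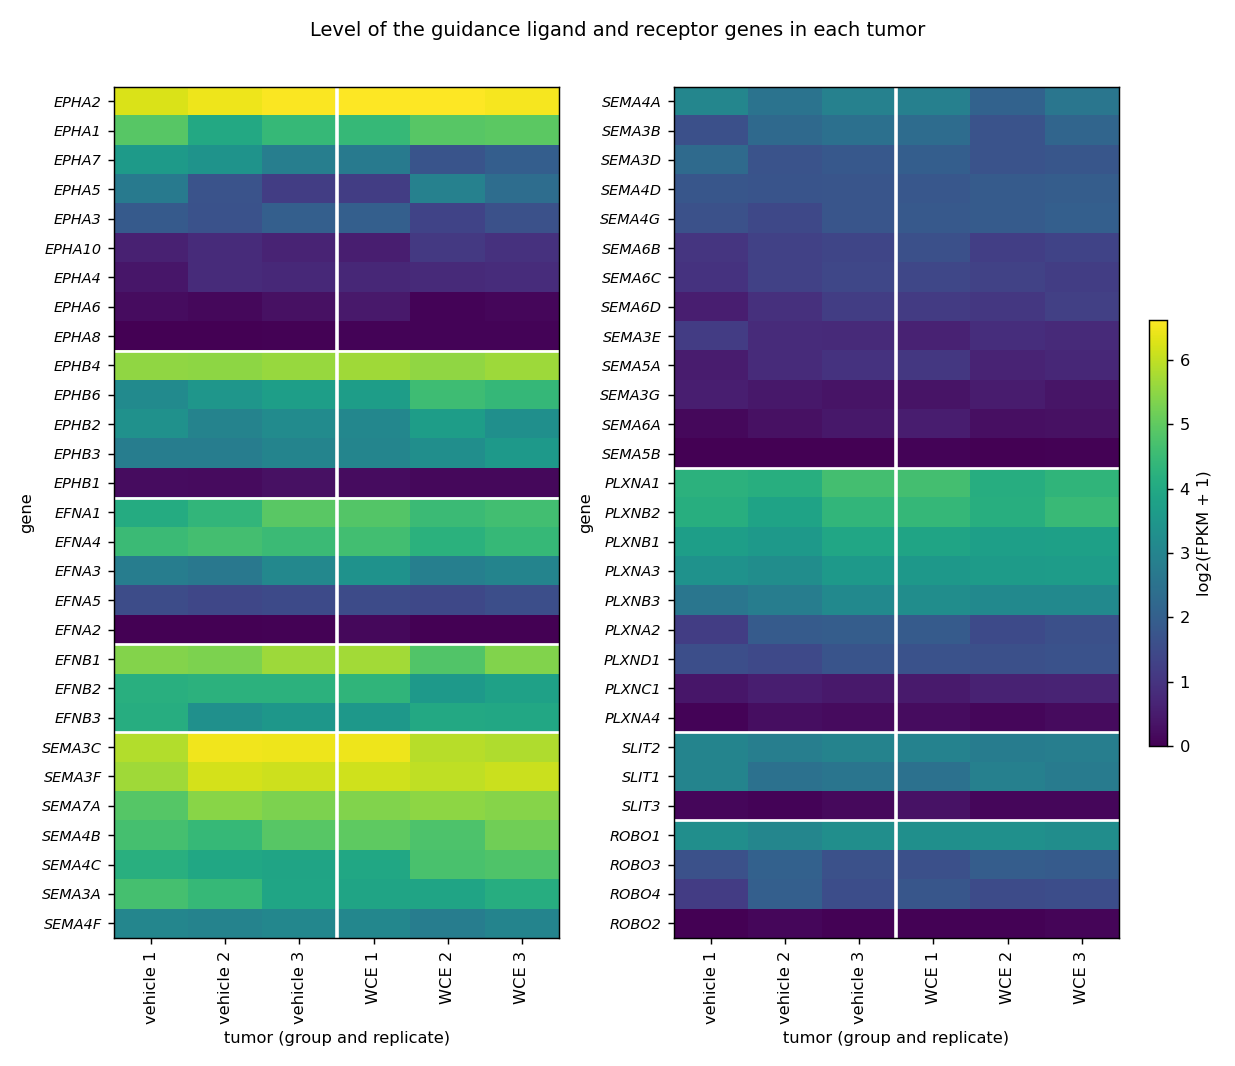
Heat map of log2(FPKM + 1) for the 58 members (rows, in order of mean level within each family, semaphorins continuing in the right panel) in the 6 tumors (columns). EPHA2, SEMA3C and SEMA3F are the brightest rows, and vehicle replicate 3 and WCE replicate 1 carry nearly the same colors in every row.

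EPHA7 was at 11.1, 9.64 and 6.13 FPKM in vehicle replicates 1, 2 and 3 and at 5.58, 2.29 and 2.94 FPKM in WCE replicates 1, 2 and 3. The WCE values all lay under the vehicle values, and the nearest values across the groups were those of the nearly identical pair. The means were 8.96 ± 2.55 FPKM under vehicle and 3.60 ± 1.75 FPKM under WCE (SD, n = 3 each), a ratio of 0.402. The log2 fold change, the difference of the group means on the log2(FPKM + 1) scale, was -1.14 (standard error 0.29). Within the pair the difference was -0.12, which was exceeded in size by 6 of the other 46 members tested. Without the pair the ratio of the means was 0.252 and the log2 fold change was -1.66 (standard error 0.15), in a comparison of 2 tumors with 2. The range over all settings tried, including each tumor left out in turn, was -1.66 to -0.93.

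The share of EPHA7 in the EPHA class was also lower in each WCE-treated tumor. It made up 8.92%, 8.19% and 4.85% of the summed FPKM of the 9 EPHA genes in the vehicle-treated tumors and 4.30%, 1.66% and 2.21% in the WCE-treated tumors. EPHA7 was the third most abundant EPHA gene in each vehicle-treated tumor and in WCE replicate 1, and it was below EPHA5 in WCE replicates 2 and 3. The entry is listed on chromosome 6, at chr6:93949740-94129300 of hg19, with no other entry at its locus. In the transcripts of GENCODE release 29, none of its 7407 stretches of 50 bases occurred in a transcript of another gene, its relatives included.

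Windows before a listed start of EPHA7, the member with the lowest log2 fold change, and of EPHB6, the member with the highest, are shown. The study asks about NFκB, a transcription factor that binds sites of the form GGG, any 5 bases and CC. The windows are the 250 bases before the most upstream start that the RefSeq set used here (GRCh38.p14) lists for each gene. They lie at chr6:93419560-93419809 on the minus strand for EPHA7 and at chr7:142862506-142862755 on the plus strand for EPHB6. Whether the EPHB6 start used is that of its first exon was not tested. Its window may lie inside the gene, so the windows may not be alike in kind, and their difference is not read as one between promoters. Both are written 5′ to 3′, with matches to this form on either strand in capitals.
EPHA7: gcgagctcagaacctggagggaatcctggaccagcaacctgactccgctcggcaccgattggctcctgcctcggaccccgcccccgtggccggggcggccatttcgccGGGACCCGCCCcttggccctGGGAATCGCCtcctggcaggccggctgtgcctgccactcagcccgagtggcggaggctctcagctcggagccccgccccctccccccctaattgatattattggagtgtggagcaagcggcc
EPHB6: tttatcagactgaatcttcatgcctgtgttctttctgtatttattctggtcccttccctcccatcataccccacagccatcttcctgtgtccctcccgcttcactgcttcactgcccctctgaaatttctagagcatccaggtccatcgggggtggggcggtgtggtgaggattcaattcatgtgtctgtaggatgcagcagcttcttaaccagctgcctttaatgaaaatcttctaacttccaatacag
The EPHA7 window held 3 matches, of which the first and second overlap, beginning 142, 141 and 122 bases before the start, and the EPHB6 window held 0. The windows also differed in base composition, with 69.6% G and C and 19 CG dinucleotides for EPHA7 and 48.0% and 3 for EPHB6. Windows were found for 53 of the 58 members, of which 39, or 73.6%, held a match, beside 53.7% of the windows of all 27305 genes. The median G and C content was 65.2% in the members and 57.6% in all genes, and the part of base composition in these shares was not tested. A match is a description of the letters and not a binding site.

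None of the other 6 EPHA receptors tested had separated groups, that is, all 3 WCE-treated tumors on one side of all 3 vehicle-treated tumors, which was found in 12.8% of all 13287 entries tested. EPHA3, EPHA4, EPHA5 and EPHA6 are close relatives of EPHA7. EPHA5 was at 5.49, 2.26 and 1.31 FPKM under vehicle and at 1.32, 6.47 and 4.17 FPKM under WCE, so that each group held low and high tumors and the groups overlapped. EPHA3 was at 2.67, 2.16 and 3.01 FPKM and at 2.98, 1.53 and 2.15 FPKM, with overlapping groups and a log2 difference of -0.18 (standard error 0.19). EPHA4 was low, at 0.320, 0.774 and 0.703 FPKM and at 0.680, 0.721 and 0.775 FPKM. EPHA6 was lower still and not tested, at 0.169, 0.105 and 0.219 FPKM and at 0.375, 0.0551 and 0.0781 FPKM. EPHA8 was at 0, 0 and 0.0190 FPKM and at 0.0379, 0.0438 and 0.0466 FPKM, which separates the groups at levels near the limit of detection, and it was not tested.

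EPHA2, a receptor that is widely expressed in epithelial tumors, was the most abundant member and stood at the 95.7th percentile of all entries. It was at 75.1, 87.2 and 94.0 FPKM under vehicle and at 97.5, 96.3 and 92.04 FPKM under WCE. Vehicle replicate 1 was the lowest and the groups overlapped, with a log2 difference of 0.16 (standard error 0.11). EPHA2 made up 60.4% to 75.1% of the summed FPKM of the EPHA genes in the 6 tumors. EPHA1 was next, at 28.97, 14.9 and 20.5 FPKM and at 20.8, 29.1 and 30.0 FPKM, and its locus is shared by 5 entries. The summed FPKM of the EPHA class averaged 122.9 ± 4.58 under vehicle and 133.5 ± 3.99 under WCE (SD, n = 3 each). No WCE-treated tumor was below a vehicle-treated tumor in this sum, and the nearest values were 126.5 in vehicle replicate 3 and 129.7 in WCE replicate 1.

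All 4 EPHB receptors tested had a higher mean log2 level under WCE, and EPHB6 and EPHB3 had the largest differences of them. EPHB6, listed at chr7:142552792-142568847 of hg19, carries a kinase domain without catalytic activity. It was at 7.95, 10.2 and 12.1 FPKM under vehicle and at 11.9, 22.6 and 20.2 FPKM under WCE. WCE replicates 2 and 3 were above every other tumor, and WCE replicate 1 lay just below vehicle replicate 3, so the groups overlapped. The log2 fold change was 0.77 (standard error 0.24), the highest among the members tested, by limma with unadjusted p = 0.0138 and adjusted p = 0.623, and 1.16 (standard error 0.15) without the pair.

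EPHB3, a receptor of epithelial boundaries in the gut listed at chr3:184279587-184300196, was at 6.00, 5.95 and 6.86 FPKM and at 7.11, 8.65 and 10.7 FPKM, with every WCE-treated tumor above every vehicle-treated tumor. Its log2 fold change was 0.42 (standard error 0.15), by limma with unadjusted p = 0.0233 and adjusted p = 0.623, and 0.61 without the pair. EPHB4, the receptor of EFNB2 in veins, was the most abundant of the class, at 45.2, 44.3 and 47.9 FPKM and at 50.4, 45.2 and 49.1 FPKM. EPHB2 averaged 8.02 ± 1.19 FPKM under vehicle and 9.37 ± 2.35 FPKM under WCE (SD, n = 3 each), and its locus is shared by 3 entries. The summed FPKM of the EPHB class was 68.5, 67.4 and 75.2 in the vehicle-treated tumors and 76.9, 88.5 and 88.9 in the WCE-treated tumors. EPHB6 made up 11.6% to 16.1% of it in the vehicle-treated tumors and WCE replicate 1, and 25.5% and 22.7% in WCE replicates 2 and 3.

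**Figure D2:**
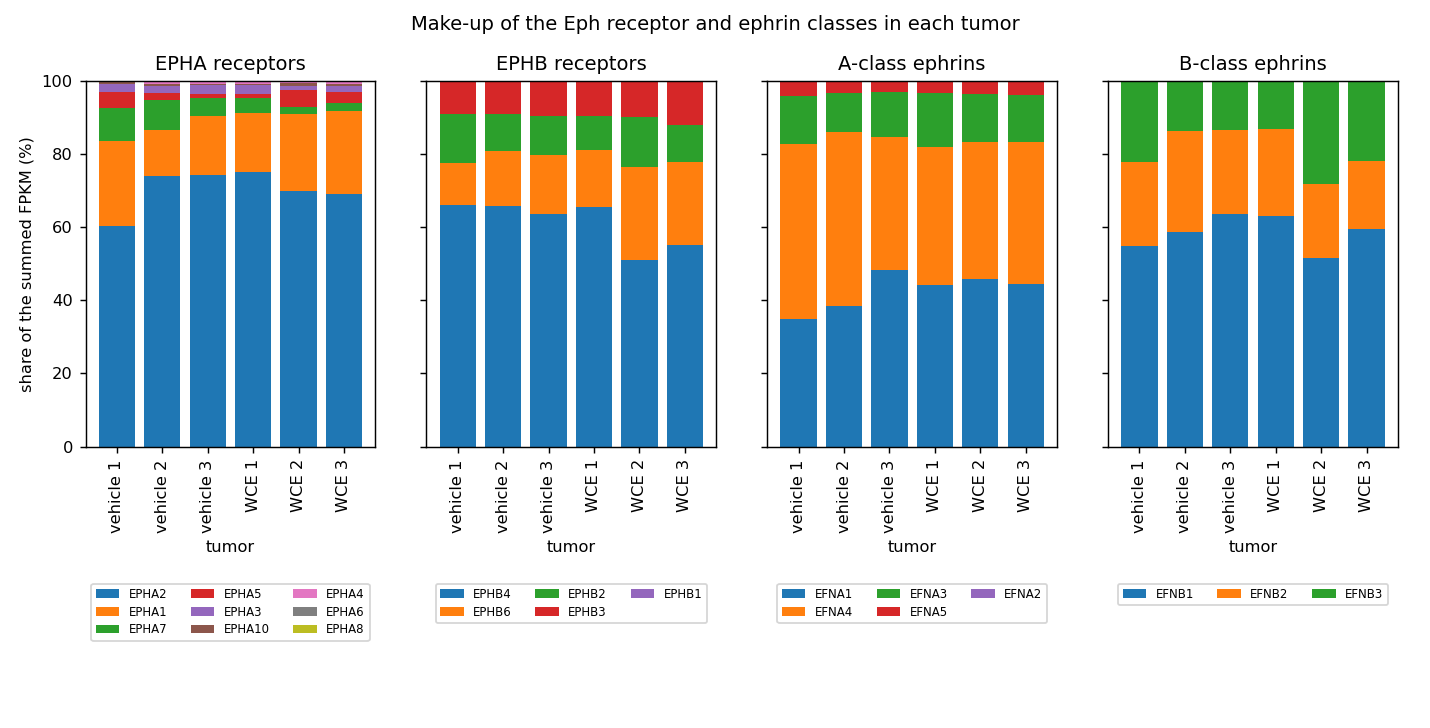
Stacked bars of the share (%) of each gene in the summed FPKM of its class in the 6 tumors, for EPHA receptors, EPHB receptors, A-class ephrins and B-class ephrins. EPHA2 and EPHB4 hold the largest part of their class in every tumor, and the EPHA7 band narrows from 8.92% in vehicle replicate 1 to 1.66% in WCE replicate 2.

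The groups overlapped for all 7 ephrins tested. EFNB1, a transmembrane ligand of EPHB receptors, was the most abundant, at 41.1, 38.6 and 49.3 FPKM under vehicle and at 51.0, 27.2 and 40.4 FPKM under WCE. The lowest and the highest of these values were both from WCE-treated tumors. EFNB2, the arterial ligand of EPHB4, was at 17.0, 18.2 and 18.04 FPKM and at 19.3, 10.7 and 12.8 FPKM. Its vehicle-treated tumors lay close together, WCE replicates 2 and 3 were below them and WCE replicate 1 was above them. The log2 fold change was -0.34 (standard error 0.19), and -0.55 without the pair.

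EFNA1, the main ligand of EPHA2, was at 15.96, 19.4 and 29.2 FPKM under vehicle and at 27.8, 21.7 and 23.7 FPKM under WCE. EFNA4 was at 21.7, 24.0 and 22.0 FPKM and at 23.6, 17.8 and 20.7 FPKM, and its locus is shared by 4 entries. Their log2 fold changes were 0.21 and -0.13, with standard errors of 0.21 and 0.12. The value of EFNA1 rested on single tumors, with 0.025 when vehicle replicate 1 was left out, 0.44 when vehicle replicate 3 was, and 0.35 without the pair. EFNA3 had means of 6.28 and 7.52 FPKM and EFNB3 of 12.0 and 13.5 FPKM. Of the 50-base stretches of EFNA3, 42.2% also occurred in the joined transcript AL691442.1, so its value can be split between annotations. EFNA5 ranged from 1.68 to 2.01 FPKM over the 6 tumors.

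Semaphorins were the largest family, and the secreted class 3 contributed most of its RNA. SEMA3C was at 56.7, 89.0 and 87.3 FPKM under vehicle and at 86.7, 59.0 and 55.5 FPKM under WCE. Its values formed a low and a high set of 3 tumors each, with both treatments in both sets. SEMA3F, which signals mainly through NRP2, was at 50.6, 72.7 and 68.8 FPKM and at 69.1, 62.6 and 66.9 FPKM, and vehicle replicate 1 was again the lowest. SEMA3A, a ligand of NRP1, averaged 19.8 ± 5.36 FPKM under vehicle and 14.6 ± 1.63 FPKM under WCE (SD, n = 3 each), with a log2 difference of -0.39 (standard error 0.20), and -0.56 without the pair. Of the 6 class 3 genes tested, 5 had a lower and 1 a higher mean log2 level under WCE, with a median log2 fold change of -0.14.

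SEMA7A, a lipid-anchored semaphorin that binds PLXNC1 and integrins, was at 28.2, 42.9 and 38.9 FPKM and at 40.1, 43.8 and 41.7 FPKM. SEMA4B, a transmembrane semaphorin, was at 24.5, 20.7 and 29.1 FPKM and at 30.7, 26.1 and 35.2 FPKM, with overlapping groups and a log2 difference of 0.30 (standard error 0.16). SEMA4C, a ligand of PLXNB2, had 15.1 ± 1.76 and 22.2 ± 6.69 FPKM (SD, n = 3 each). WCE replicates 2 and 3 were at 25.3 and 26.7 FPKM and the other 4 tumors between 13.7 and 17.0 FPKM, and its log2 fold change was 0.49 (standard error 0.22), and 0.69 without the pair.

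SEMA4G and SEMA4D were low but separated by group. SEMA4G was at 2.13, 1.69 and 2.34 FPKM under vehicle and at 2.60, 2.74 and 2.98 FPKM under WCE, by limma with unadjusted p = 0.0420 and adjusted p = 0.623 for a log2 fold change of 0.31 (standard error 0.13), or 0.41 without the pair, and its locus is shared by 3 entries. SEMA4D, the ligand of PLXNB1, was at 2.44, 2.30 and 2.35 FPKM and at 2.499, 2.76 and 2.87 FPKM, a log2 difference of 0.14 (standard error 0.11). SEMA4A, at 6.17 ± 1.26 and 4.90 ± 1.59 FPKM (SD, n = 3 each), was on the lower side. Of the 6 class 4 genes, 4 had a higher and 2 a lower mean log2 level, with a median log2 fold change of 0.22, and the difference between the classes was not tested.

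**Figure D3:**
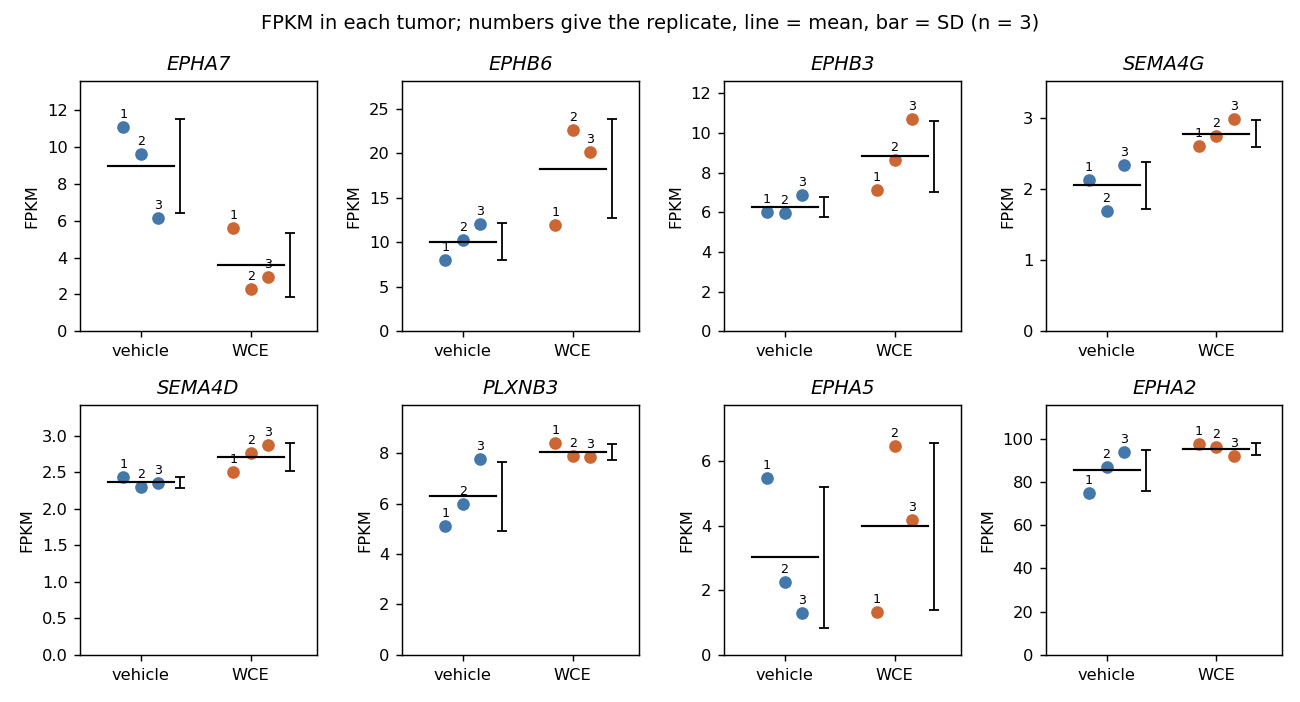
FPKM of 8 members in each tumor, vehicle in blue and WCE in orange, with the replicate number over each point, the mean as a line and the SD (n = 3) as a bar, on axes that start at 0. The groups do not overlap for EPHA7, EPHB3, SEMA4G, SEMA4D and PLXNB3, WCE replicate 1 sits at the vehicle level for EPHB6, and the groups overlap for EPHA5 and EPHA2.

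Of the 7 plexins tested, the receptors of the semaphorins, only PLXNB3 had separated groups. PLXNA1 was at 18.04, 16.7 and 23.8 FPKM under vehicle and at 24.2, 16.3 and 19.3 FPKM under WCE, a log2 difference of 0.027 (standard error 0.18). PLXNB2 was at 16.6, 13.2 and 19.5 FPKM and at 20.3, 16.9 and 21.6 FPKM. PLXNB1, the receptor of SEMA4D, was at 12.1, 11.04 and 14.1 FPKM and at 13.7, 12.4 and 12.7 FPKM. All 3 had overlapping groups, and vehicle replicate 2 was the lowest tumor for PLXNB2 and PLXNB1. PLXNA3 was at 9.46, 8.48 and 10.96 FPKM and at 10.5, 11.4 and 11.7 FPKM, a log2 difference of 0.20 (standard error 0.12), or 0.33 without the pair. PLXNB3 was at 5.10, 5.99 and 7.75 FPKM and at 8.41, 7.87 and 7.86 FPKM, with every WCE-treated tumor above every vehicle-treated tumor and a log2 difference of 0.33 (standard error 0.14), or 0.44 without the pair. Of the 50-base stretches of PLXNB3, 18.3% also occurred in transcripts of SRPK3. PLXND1, a vascular plexin, had 2.03 ± 0.280 and 2.15 ± 0.0806 FPKM (SD, n = 3 each).

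The 5 SLIT and ROBO genes tested had log2 fold changes between -0.076 and 0.10. SLIT2 was at 6.94, 6.13 and 6.79 FPKM under vehicle and at 6.63, 5.88 and 6.18 FPKM under WCE, a log2 difference of -0.076 (standard error 0.10). SLIT1 is listed only in an entry joined with ARHGAP19, at 6.98, 4.51 and 4.94 FPKM and at 4.50, 6.37 and 5.75 FPKM, so SLIT1 and ARHGAP19 cannot be told apart in it. ROBO1, the main receptor of SLIT2, was at 8.69, 7.15 and 8.72 FPKM and at 8.86, 9.09 and 8.53 FPKM. The groups overlapped for SLIT2, SLIT1 and ROBO1. ROBO3, at 2.10, 3.19 and 2.10 FPKM and at 2.09, 2.84 and 2.74 FPKM, differed by 0.047 between the groups on the log2 scale (standard error 0.16). ROBO4, an endothelial receptor, was at 1.28, 2.99 and 1.97 FPKM and at 2.41, 1.86 and 1.97 FPKM, with its extremes in the vehicle-treated tumors.

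Several members mark blood vessels, and endothelial markers were low and uneven. Summed over 10 endothelial genes the level was 2.85 to 6.94 FPKM in vehicle-treated and 6.503 to 11.95 FPKM in WCE-treated tumors. EMCN was at 0 in all tumors, CDH5, TEK, VWF, CLDN5 and FLT1 were at most 0.0893 FPKM in any tumor, and the sum was carried by PECAM1, ESAM, TIE1 and KDR. KDR averaged 0.330 FPKM under vehicle and 2.42 FPKM under WCE, and TIE1 averaged 0.429 and 1.55 FPKM. Both reached the minimum of 0.5 FPKM only through the WCE-treated tumors, so no test is given for them, and their log2 differences were 1.14 and 0.77, or 1.69 and 1.15 without the pair. Their part in the values of EPHB4, EFNB2, PLXND1 and ROBO4 was not tested. In bulk tumors, fewer cells of a type and less RNA per cell cannot be told apart, and RNA of the mouse host is separated only as far as the authors' alignment did so. These entries and those of the other cell lists carry human symbols, whereas the paper read stromal cells with mouse-specific primers. How far they reflect cells of the host was not tested. The paper reports less CD31 staining in WCE-treated tumors, a measure of protein in tissue slices and not of RNA. PECAM1, the gene of CD31, was at 0.860, 2.95 and 2.61 FPKM under vehicle and at 2.48, 2.05 and 2.37 FPKM under WCE. Its groups overlapped, with a log2 difference of 0.14 (standard error 0.27), or 0.24 without the pair.

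The lists for other cells gave the following sums. Markers of PC-3 cells (KRT8, KRT18, KRT19, EPCAM, CDH1 and VIM) were high, at 1479 to 1858 FPKM in vehicle-treated and 1642 to 1783 FPKM in WCE-treated tumors, while KLK3 and KLK2, made by androgen-driven prostate cells, were at 0 in all tumors. EPCAM and CDH1 passed an unadjusted threshold of 0.05 in limma (unadjusted p = 0.00889 and 0.0253, adjusted p = 0.623 for both), and both were lower in every WCE-treated than in every vehicle-treated tumor, with log2 fold changes of -0.73 and -0.47, or -1.08 and -0.68 without the pair. The other markers of PC-3 cells were not lower in this way, and their groups overlapped. VIM averaged 356 FPKM under vehicle and 473 FPKM under WCE, a log2 difference of 0.41, or 0.63 without the pair. KRT8, KRT18 and KRT19 had log2 differences of 0.050, 0.10 and -0.014. TMPRSS2 carried the androgen-driven list, at 12.4 to 24.1 and 24.9 to 27.4 FPKM in sum. The leukocyte sum of 25.8 to 41.4 and 40.4 to 44.7 FPKM was carried by CD68, with PTPRC, ITGAM and CSF1R low in both groups. The sum for fibroblasts and mural cells was 44.1 to 58.8 and 13.95 to 58.4 FPKM, and LUM averaged 1.90 FPKM under vehicle and 0.496 FPKM under WCE. LUM reached the minimum only through the vehicle-treated tumors, so no test is given for it, and its log2 difference was -0.85, or -1.31 without the pair. The nerve and Schwann cell sum, 41.3 to 44.6 and 39.7 to 43.7 FPKM, was nearly all TUBB3, with S100B at 0 in all tumors and SOX10 at 0 in the vehicle-treated tumors. The part of these cells in the values of the members was not tested.

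With EPHA7 left out, 46 members were tested by limma. None of them (0 of 46) had an adjusted p under 0.05, beside 0.00753% (1 of 13287) of all entries, and their lowest adjusted p was 0.623. An unadjusted p under 0.05 was found for 3 of them, beside 7.1% of all entries. These were EPHB6, EPHB3 and SEMA4G on the higher side, where all entries gave 3.78%, and there were 0 on the lower side, where all entries gave 3.33%. The groups did not overlap in 4 of the 46, beside 12.8% of all entries. These were EPHB3, SEMA4G, SEMA4D and PLXNB3 on the higher side, where all entries gave 6.37%, and there were 0 on the lower side, where they gave 6.4%. The unadjusted p was no longer under 0.05 for EPHB6 without vehicle replicate 1 or WCE replicate 3, for EPHB3 without any 1 of vehicle replicates 1 and 2 and WCE replicates 2 and 3, and for SEMA4G without any 1 of the same 4 tumors. Among the members named by rule, it came to be under 0.05 for EPHA1 without vehicle replicate 1 (log2 difference 0.56). The same held for EFNA1, PLXNA3, PLXNB3 and SEMA4B without vehicle replicate 3 (0.44, 0.29, 0.47 and 0.42). It also held for SEMA4B without WCE replicate 2 (0.41) and for EFNB2 without WCE replicate 1 (-0.56). Members not named by rule are not listed. With them, the limma counts were 2, 1 and 9 of the 46 without vehicle replicates 1, 2 and 3, where 3.18%, 2.61% and 13.3% of all entries passed. They were 5, 2 and 0 without WCE replicates 1, 2 and 3, where 15.3%, 1.77% and 1.65% passed. With 3 tumors against 3, an exact permutation test cannot give a two-sided p under 0.1.

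The mean log2 level was higher in WCE-treated tumors for 33 of the 47 members (70.2%) and lower for 14. The median log2 fold change was 0.072 over the members and -0.0063 over all entries, of which 48.6% were higher. By class the median was 0.16 for EPHA receptors, 0.30 for EPHB receptors, 0.12 for A-class and -0.16 for B-class ephrins, 0.058 for plexins, -0.027 for SLIT and 0.047 for ROBO genes. Without vehicle replicate 3 and WCE replicate 1, a comparison of 2 tumors with 2, an unadjusted p under 0.05 was found for 9 of the 46 members other than EPHA7, beside 18.4% of all entries, and their groups did not overlap in 22, beside 53.5% of all entries. In that comparison 0 of the 46 had an adjusted p under 0.05 by limma, the lowest being 0.173.

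**Figure D4:**
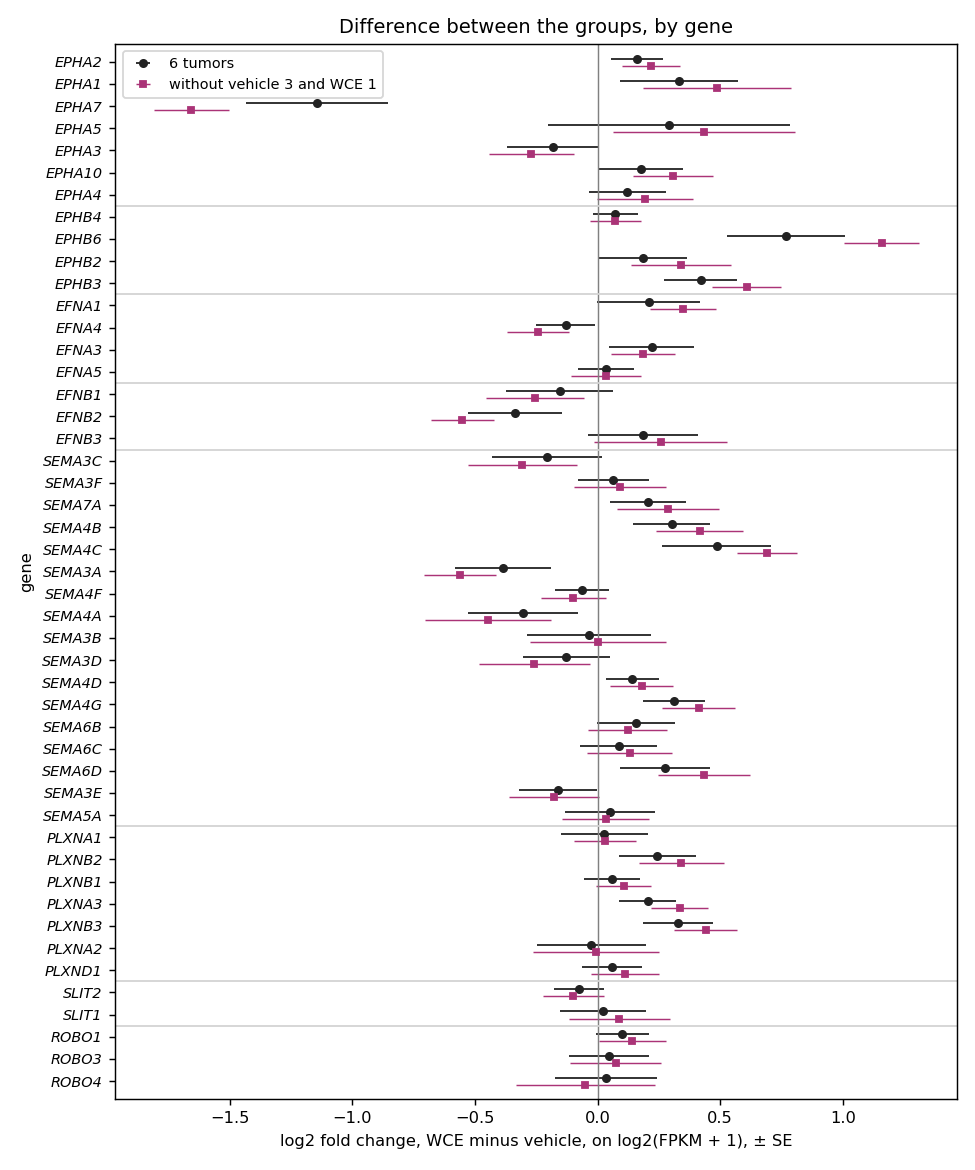
Log2 fold change (WCE minus vehicle, on log2(FPKM + 1)) with its standard error for the 47 members tested, with all 6 tumors (black circles) and without vehicle replicate 3 and WCE replicate 1 (purple squares). EPHA7 lies farthest to the left at -1.14 and EPHB6 farthest to the right at 0.77, and both lie farther from 0 without the pair, at -1.66 and 1.16.

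Guidance genes outside these families were taken from a fixed list of 16 ligands and receptors and 26 cytoplasmic effectors and partners. NRP1, the neuropilin that binds SEMA3A, was more abundant than any member, at 250, 248 and 235 FPKM under vehicle and at 232, 336 and 319 FPKM under WCE. WCE replicates 2 and 3 were above the other 4 tumors, and the log2 difference was 0.26 (standard error 0.15, unadjusted p = 0.123 by limma), or 0.39 without the pair. NRP2 was at 1.28, 2.05 and 3.46 FPKM and at 3.16, 1.46 and 1.44 FPKM. Among the netrins and their receptors, NTN4, NTN5, NTNG1 and NTNG2 passed the minimum for testing, and DCC, NEO1 and the 4 UNC5 genes were below it. In limma 0 of the 7 ligands and receptors tested passed 0.05, before or after adjustment.

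In limma 3 of the 25 effectors tested passed 0.05 before adjustment, each with a higher level under WCE, where 3.78% of all entries did, and 0 passed it after adjustment. NGEF, also known as ephexin, an effector that acts under EPHA receptors, was at 11.5, 9.54 and 11.3 FPKM under vehicle and at 11.9, 19.8 and 24.1 FPKM under WCE (log2 difference 0.68 with standard error 0.23, unadjusted p = 0.0196). DPYSL3, a collapsin response mediator, was at 2.47, 2.24 and 3.24 FPKM and at 3.46, 6.24 and 5.67 FPKM (log2 difference 0.73 with standard error 0.20, unadjusted p = 0.00798). ARHGEF11, an effector bound by B-class plexins, was at 7.06, 6.45 and 8.85 FPKM and at 10.0, 9.68 and 9.21 FPKM (log2 difference 0.34 with standard error 0.13, unadjusted p = 0.0283). In all 3 every WCE-treated tumor was above every vehicle-treated tumor, and the adjusted p was 0.623. Without the pair the log2 differences were 0.99 for NGEF, 1.05 for DPYSL3 and 0.43 for ARHGEF11.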

How the data were processed

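The authors deposited FPKM values for 24000 gene entries, 1 column per tumor, made with TopHat2 2.0.13 and Cufflinks per the submitters' processing notes, which list the builds hg19 and mm10. How mm10 was used, which annotation was taken and whether tumors were scaled to each other is not given in the sources used here. The read depth is unknown, and counting intervals cannot be had.

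Columns were matched to tumors by the labels. Entries with a mean of at least 0.5 FPKM over the 6 tumors (13287) were compared on log2(FPKM + 1), two-sided, by limma 3.58.1 (R 4.3.3) fitted with its trend option, with Benjamini-Hochberg adjustment over all entries. The paper's Methods name an unpaired two-tailed test, used as an alternative. The p-values set the difference between the groups against the spread between these libraries. Vehicle replicate 3 and WCE replicate 1 may not be independent of each other. The comparison was tested on simulated data. Relative depth was the commonest ratio of low values to vehicle replicate 3. Starts in the deposited loci count from 0, so 1 was added.

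The members and lists were chosen with earlier results of these data known. Members named with a value in every tumor were EPHA7, those with an unadjusted p under 0.05 or separated groups, the 4 most abundant in each of the Eph receptors, ephrins, semaphorins and plexins, tested SLIT and ROBO genes, and EPHA3 to EPHA6 as relatives of EPHA7, and other members are given by means or ranges. Of other lists, NRP1, NRP2 and genes with an unadjusted p under 0.05 were named. EPHA8, SEMA4C, SEMA3A, EFNA2, SEMA5B and the markers named without passing that threshold were singled out after their values were seen. Upstream windows came from RefSeq (GRCh38.p14) and transcripts from GENCODE release 29, for sequence only. Other settings varied pseudocount, filter, scaling, trend, moderation and weights, added a replicate block, or left tumors out. Python 3.11.15, pandas 2.3.3, numpy 2.4.6 and matplotlib 3.10.9 were used. Same-numbered tumors came from different mice, and the labels do not pair them.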

Additional observations from a re-analysis of the deposited data

How the results depend on the processing

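EPHA7 is among the members in these counts. Over the 18 other settings, 0 members had an adjusted p under 0.05, and EPHA7 stayed below 0, with -0.93 to -1.43 when 1 tumor was left out and -1.66 without vehicle replicate 3 and WCE replicate 1, where the comparison has fewer tumors. The unadjusted count of 4 members was 1 to 10 when 1 tumor was left out (10 without vehicle replicate 3, 2 without vehicle replicate 2, 1 without WCE replicate 3), where 13.3%, 2.61% and 1.65% of all entries passed, 10 without the pair, beside 18.4%, and 13 with limma array weights, beside 24.1%, whose lowest weight was 0.408 (vehicle replicate 1) and highest 4.00 (WCE replicate 3). The count of 5 members with separated groups was 8 to 17 with 1 tumor left out (17 without vehicle replicate 3, 13 without WCE replicate 1, 9 without vehicle replicate 1, 8 without each of the others). Of all entries, 33% separated without vehicle replicate 3, 37.8% without WCE replicate 1 and 17.3% to 20.4% without another tumor. Without the pair the count was 23, beside 53.5%. The 3 other guidance genes became 1 to 9 with 1 tumor left out (9 without WCE replicate 1, 1 without WCE replicate 2 or 3, beside 15.3%, 1.77% and 1.65% of all entries), 7 without the pair and 9 with array weights. Fewer tumors separate more easily, and how far this or anything else accounts for these counts was not tested. With 1 tumor left out, some of the members named by rule changed sign. Their lowest and highest log2 fold changes were -0.36 and 0.084 for EFNB1, -0.011 and 0.20 for EPHA4 and -0.080 and 0.76 for EPHA5. They were -0.11 and 0.17 for PLXNA1, -0.018 and 0.15 for PLXNB1, -0.026 and 0.19 for ROBO3 and -0.17 and 0.24 for ROBO4. SEMA3F had -0.095 and 0.16, and SLIT1 had -0.085 and 0.18. ROBO4 was also -0.0032 with quantile normalization, -0.17 with array weights and -0.049 without the pair, and SEMA3F was -0.031 with array weights. Of the other 28 members named by rule, 19 changed sign in no setting.

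With a replicate block in limma, EPHA7 stayed at -1.14. In that fit 5 members had an unadjusted p under 0.05, or 4 without EPHA7, and 4 other guidance genes did, beside 7.89% of all entries. Among the members named by rule, SEMA4G lost and SEMA4B gained an unadjusted p under 0.05. EPHB6 and EPHB3 lost and SEMA4D gained it in an unmoderated two-sample test, and SEMA4G lost it with quantile normalization. Same-numbered tumors had correlations of -0.24 to 0.16 between their deviations from the group means (mean -0.058), and differently numbered tumors had a mean of 0.028. With 3 tumors per group and the nearly identical pair across the groups, these values cannot decide whether the numbers pair the tumors. The numbers were not taken to pair them, since the labels do not. Low members are limited by depth most in WCE replicate 1, at 25.0% of vehicle replicate 3.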
